A study of Rattus norvegicus with 8 samples.

Results

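The metabotropic glutamate receptor genes Grm2, Grm3, Grm4, Grm5, Grm7 and Grm8 were read from RNA sequencing of rat orbitofrontal cortex. They were taken by symbol from the protein-coding genes of the count table, which gave 6 genes of 34298 in all, and each name matched 1 gene model. All 8 libraries came from adult males of the outbred Sprague-Dawley strain of rats, 8 weeks old on arrival. In 4 animals, called knockdown here after their labels, an siRNA against the backsplice junction of the circular RNA circNrxn3 had been infused into the orbitofrontal cortex (replicates 1 to 4). The other 4 animals had received a scrambled siRNA (replicates 1, 3, 4 and 5). In both groups the infusion was 1 µl with 5 ng of siRNA in the transfection reagent JetPEI, and the tissue was taken 7 days later. The labels call the samples biological replicates. The design compares cortical mRNA between the siRNAs. Total counts ran from 28219271 to 35221782 in knockdown and from 27589883 to 35191810 in scrambled libraries.

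The groups differ by the infused duplex, whose strands are shown because they define the knockdown. Capitals mark the seed, bases 2 to 8 of the antisense strand.
circNrxn3 siRNA, sense: uccaaaggcuagacaggaauu
circNrxn3 siRNA, antisense: uUCCUGUCuagccuuuggauu

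Metabotropic glutamate receptors are G protein-coupled receptors that adjust transmission at synapses, rather than opening an ion channel themselves. The receptor mGlu5, the product of Grm5, belongs to group I. It sits mainly on postsynaptic membranes, couples to Gq and phospholipase C, and is held near the postsynaptic density by Homer and Shank proteins. Group II (Grm2 and Grm3) and group III (Grm4, Grm7 and Grm8) couple to Gi/o, lower cyclic AMP and, at many terminals, reduce transmitter release. Grm3 is also expressed by astrocytes.

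Cortical tissue was recognised by its markers. All 8 markers of excitatory cortical neurons had counts in every library, with a summed level of 2307 to 2914 CPM in knockdown and 2695 to 3108 CPM in scrambled libraries. CPM are read counts set against the TMM-scaled size of each library. Markers of other regions that a dissection could include were present at summed levels of 434 to 511 CPM in knockdown and 467 to 591 CPM in scrambled libraries for striatal neurons, 38.9 to 45.9 CPM in knockdown and 39.1 to 48.8 CPM in scrambled libraries for thalamic neurons, and 17.2 to 26.9 CPM in knockdown and 17.3 to 27.9 CPM in scrambled libraries for the olfactory bulb. Choroid plexus markers summed to 0.41 to 2.84 CPM in knockdown and 0.715 to 2.24 CPM in scrambled libraries, with Cldn2 at 0 in all 8. Red blood cell markers summed to 359 to 759 CPM in knockdown and 607 to 2438 CPM in scrambled libraries, with all 5 markers above 0 in every library and log2 fold changes of −1.23 to −0.84. The groups overlapped, and scrambled replicate 3 was the highest. The part of blood content in the values below was not tested. Endothelial markers summed to 82.7 to 99.4 CPM in knockdown and 69.3 to 89.3 CPM in scrambled libraries. Of the 4 found, 3 had counts in every library, whereas Cldn5 had 0 counts in every library. Oligodendrocyte markers varied widely within groups, from 2320 to 3855 CPM in knockdown and 1796 to 4389 CPM in scrambled libraries. Microglia markers summed to 248 to 468 CPM in knockdown and 265 to 474 CPM in scrambled libraries. The part of these glial cells in the receptor values was not tested. The host gene of the circle, Nrxn3, had 430, 381, 82 and 268 counts in knockdown replicates 1 to 4, against 344, 114, 216 and 261 counts in scrambled replicates 1, 3, 4 and 5. Poly-T selected libraries hold mainly linear mRNA, so these counts say nothing of how much circle was left. In bulk tissue, fewer cells of a type and less RNA per cell cannot be told apart.

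None of the 6 receptor genes passed the test between the siRNA groups. Counts were compared with edgeR's quasi-likelihood test, adjusted over all 16573 genes tested (Benjamini-Hochberg, threshold 0.05), and all 6 receptors passed its filter on low counts. The test called 0 of 6 receptors and 0 of 16573 genes (0%). At an unadjusted p under 0.05 it held 0 receptors and 926 genes (5.59%). Knockdown and scrambled values overlapped for each of the 6 receptors, whereas they did not overlap in 3.48% of all genes tested. In the same fit, 5 of the 6 log2 fold changes lay above 0, as did 8509 of all 16573 genes. The median of the 6 was 0.04, against a median of 0.01 over all genes. No direction is read from this, since Grm5, Grm3 and Grm4 changed sign in 15, 4 and 3 of 21 alternative fits. Limma-voom also called 0 genes. DESeq2 called 18 of 4042 genes (0.445%) that it gave an adjusted p, and none was a receptor. It gave Grm2 alone of the receptors an adjusted p (0.882).

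**Figure D1:**
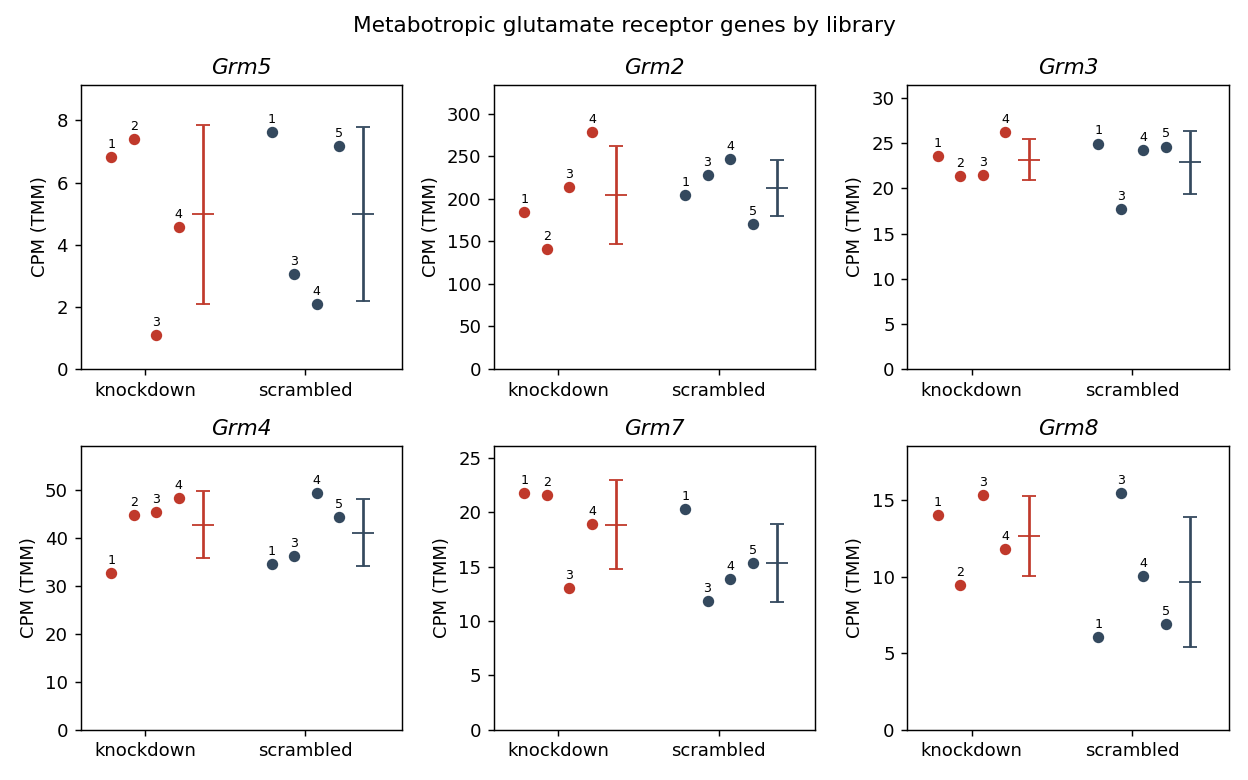
Level of each receptor gene in every library, in CPM scaled with TMM factors, with knockdown libraries (red) left of scrambled libraries (dark) and the replicate number above each point. Bars give the mean and SD of 4 libraries, and the groups overlap in every panel.

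Grm5, the postsynaptic group I receptor gene, had the widest spread. Its gene model (ENSRNOG00000016429, chromosome 1, 151439409 to 151783392, plus strand, rn6) holds 3121 bp of exons. It had 253, 227, 30 and 145 counts in knockdown replicates 1 to 4, and 213, 103, 70 and 211 counts in scrambled replicates 1, 3, 4 and 5. Knockdown replicate 3 was the lowest library and scrambled replicate 4 the next, so each group held both high and low libraries. The group means were 4.97 ± 2.87 CPM in knockdown and 4.99 ± 2.82 CPM in scrambled libraries (SD, n = 4 each). The log2 fold change stood at 0.002 with a standard error of 0.59 (edgeR adjusted p = 1.0), and its 95% interval of −1.33 to 1.33 covers folds of 0.398 to 2.52. The sign of this value was not stable, as it was −0.01 with RLE scaling. Within groups the SD of Grm5 was 1.10 on the log2 scale. Of the 3589 genes within 2-fold of its level, 96.5% had a smaller SD. Taken in the same way, the share was 96.2% for Grm2, 87.6% for Grm8, 86.6% for Grm4, 84.5% for Grm7 and 62.9% for Grm3. A wide spread for its level was therefore not particular to Grm5.

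Grm2 encodes the group II receptor mGlu2, found mainly on glutamate terminals. Its gene model (ENSRNOG00000013171, chromosome 8, 115344999 to 115358046, minus strand) is the most compact of the 6, spanning 13.0 kb with 4580 bp of exons. It was at 185, 141, 214 and 278 CPM in knockdown replicates 1 to 4, against 204, 228, 247 and 170 CPM in scrambled replicates 1, 3, 4 and 5. The lowest and the highest library were both knockdown libraries, and the scrambled values lay between them. The means were 205 ± 57.7 CPM in knockdown and 212 ± 33.0 CPM in scrambled libraries (SD, n = 4 each). The log2 fold change stood at −0.05 with a standard error of 0.20 and a 95% interval of −0.50 to 0.39 (edgeR adjusted p = 0.967). The value turned to 0.09 without knockdown replicate 2 and to 0.02 without scrambled replicate 4.

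Grm3, the other group II gene, is expressed by neurons and astrocytes, and its receptor also responds to the peptide transmitter NAAG. Its model lies on chromosome 4 (ENSRNOG00000005519, 21317695 to 21560490, plus strand). It was at 23.6, 21.4, 21.5 and 26.2 CPM in knockdown replicates 1 to 4, against 24.97, 17.7, 24.3 and 24.6 CPM in scrambled replicates 1, 3, 4 and 5. Scrambled replicate 3 stood below the other 7 libraries. The means were 23.2 ± 2.27 CPM in knockdown and 22.9 ± 3.48 CPM in scrambled libraries (SD, n = 4 each). Grm3 had the narrowest interval of the 6 receptors, with a log2 fold change of 0.02, a standard error of 0.13 and a 95% interval of −0.26 to 0.30 (edgeR adjusted p = 0.987), which covers folds of 0.834 to 1.23. Without scrambled replicate 3 the log2 fold change was −0.09. All 8 astrocyte markers had counts in every library, and their summed level was 2385 to 2741 CPM in knockdown and 2720 to 3115 CPM in scrambled libraries. The part of astrocyte content in the Grm3 values was not tested.

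Group III genes encode presynaptic receptors. Grm4 (ENSRNOG00000000487, chromosome 20, 6745744 to 6791519, minus strand) was at 32.7, 44.7, 45.4 and 48.3 CPM in knockdown replicates 1 to 4, against 34.5, 36.2, 49.4 and 44.3 CPM in scrambled replicates 1, 3, 4 and 5. Each group spanned nearly the same range, from replicate 1 at the low end. The means of Grm4 were 42.8 ± 6.90 CPM in knockdown and 41.1 ± 6.99 CPM in scrambled libraries (SD, n = 4 each). Its log2 fold change stood at 0.06 with a standard error of 0.15 and a 95% interval of −0.27 to 0.38 (edgeR adjusted p = 0.951). The value was 0.17 without knockdown replicate 1, and turned to −0.0063, −0.017 and −0.0055 without knockdown replicate 4, scrambled replicate 1 and scrambled replicate 3. The gene model of Ppil1, on the same strand, overlaps the Grm4 locus, and how reads in shared sequence were counted was not given in the sources used here.

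Grm7 encodes mGlu7, a receptor of low glutamate affinity that is placed at the active zone of terminals. Its model (ENSRNOG00000005662, chromosome 4, 142780987 to 143367578, plus strand) spans 587 kb with 2507 bp of exons. Grm7 was at 21.8, 21.6, 13.0 and 18.9 CPM in knockdown replicates 1 to 4, against 20.2, 11.9, 13.8 and 15.3 CPM in scrambled replicates 1, 3, 4 and 5. Knockdown replicate 3 and scrambled replicate 1 crossed the other group. The means were 18.8 ± 4.08 CPM in knockdown and 15.3 ± 3.58 CPM in scrambled libraries (SD, n = 4 each). The log2 fold change stood at 0.30 with a standard error of 0.20 and a 95% interval of −0.14 to 0.74 (edgeR adjusted p = 0.834).

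Grm8 encodes mGlu8, another presynaptic receptor, from the widest locus of the 6 (ENSRNOG00000021468, chromosome 4, 54474136 to 55407922, minus strand, 934 kb). It was at 14.1, 9.47, 15.4 and 11.8 CPM in knockdown replicates 1 to 4, against 6.08, 15.5, 10.1 and 6.93 CPM in scrambled replicates 1, 3, 4 and 5. Scrambled replicates 1 and 5 lay below all knockdown libraries, and scrambled replicate 3 was the highest of the 8. The means were 12.7 ± 2.60 CPM in knockdown and 9.64 ± 4.25 CPM in scrambled libraries (SD, n = 4 each). Grm8 had the largest fold change of the 6, with a log2 value of 0.39, a standard error of 0.29 and a 95% interval of −0.25 to 1.03 (edgeR adjusted p = 0.838). Without scrambled replicate 3 the log2 fold change was 0.71 (edgeR adjusted p = 0.999). The intervals of Grm7 and Grm8 reach folds of 1.67 and 2.04, so differences up to those sizes lie within the error of these 8 libraries.

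**Figure D2:**
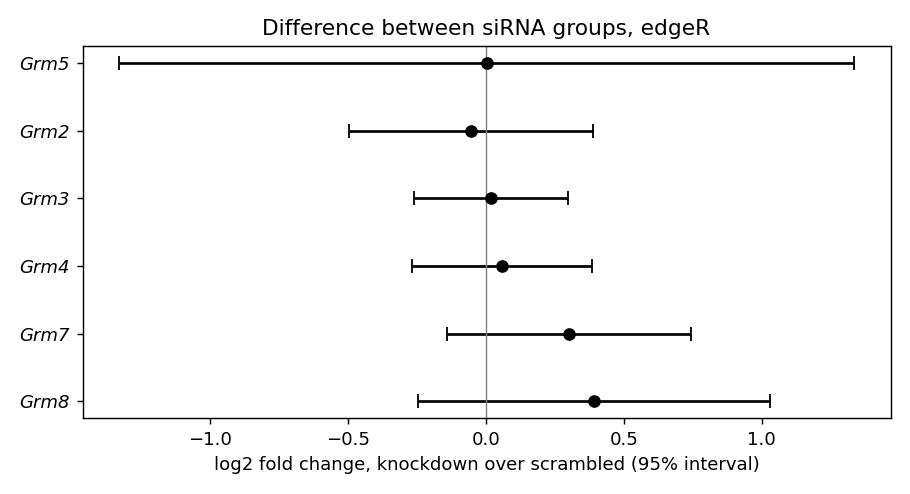
Log2 fold change of knockdown over scrambled libraries for each receptor gene (x axis, edgeR), with the 95% interval as a bar. Every interval crosses 0, the widest being that of Grm5 (−1.33 to 1.33) and the narrowest that of Grm3 (−0.26 to 0.30).

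Levels of different genes were compared with the FPKM values the authors deposited, which divide reads by the length of the gene model. Per length, Grm2 was the most abundant receptor in every library. It averaged 44.1 ± 12.6 FPKM in knockdown and 46.2 ± 7.33 FPKM in scrambled libraries, ahead of Grm4 at 16.1 ± 2.65 FPKM in knockdown and 15.6 ± 2.70 FPKM in scrambled libraries (SD, n = 4 each). Grm2 exceeded Grm4 in 8 of 8 libraries, by 1.80 to 3.60 times. Grm7 and Grm3 followed, and their order was not settled. Grm7 was at 7.41 ± 1.59 FPKM in knockdown and 6.07 ± 1.38 FPKM in scrambled libraries, and Grm3 at 6.47 ± 0.646 FPKM in knockdown and 6.44 ± 0.958 FPKM in scrambled libraries (SD, n = 4 each). Grm7 lay above Grm3 in 4 of 8 libraries, of which 3 were knockdown and 1 scrambled.

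Grm8 was at 3.12 ± 0.639 FPKM in knockdown and 2.40 ± 1.07 FPKM in scrambled libraries, and Grm3 exceeded it in 8 of 8. Grm5 was the lowest on average, at 1.57 ± 0.905 FPKM in knockdown and 1.59 ± 0.890 FPKM in scrambled libraries. Grm8 exceeded Grm5 in 5 of 8 libraries, so this pair did not separate either. The order by FPKM depends on gene models whose coverage of the mRNA was not checked. This holds for Grm5 (3121 bp) and also for the other receptors, such as Grm4 (2616 bp) and Grm7 (2507 bp). Of the summed FPKM of the 6 genes, Grm2 made up 55.2 ± 6.93% in knockdown and 58.7 ± 4.94% in scrambled libraries. The group III genes together made up 34.4 ± 5.22% in knockdown and 30.9 ± 2.71% in scrambled libraries. The sum itself was 78.9 ± 13.6 FPKM in knockdown and 78.3 ± 7.28 FPKM in scrambled libraries (SD, n = 4 each), so the spread between libraries exceeded the difference of the means.

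**Figure D3:**
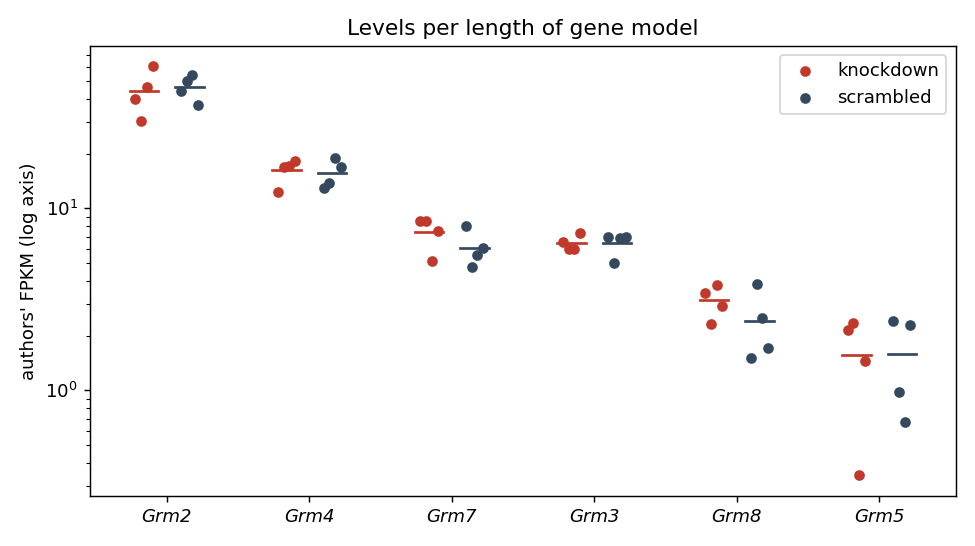
Level per length of gene model of each receptor gene (authors' FPKM, log axis), in order of the mean over 8 libraries, with knockdown (red) left of scrambled (dark) libraries. Points are libraries and lines are group means, and Grm7 with Grm3, and Grm8 with Grm5, overlap.

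Across the 8 libraries Grm5 and Grm7 moved together, and Grm8 ran opposite to Grm5. Pearson's r of log2 CPM was 0.76 between Grm5 and Grm7 (Spearman's rho 0.71, n = 8), and 0.75 without knockdown replicate 3 and scrambled replicate 4, the libraries farthest from the median of Grm5. Taken about the group means it was 0.89. Grm5 and Grm8 had an r of −0.60 (rho −0.76), and −0.70 without the same 2 libraries. Grm7 and Grm8 had an r of −0.37 (rho −0.48), and −0.77 about the group means, but the r turned to 0.23 without scrambled replicate 3 and knockdown replicate 3, the farthest from the median of Grm7. These libraries share depth and preparation as well as tissue, and the values are given as a description, chosen from 15 receptor pairs. The promoters of Grm5 and Grm7, from RefSeq (GRCr8), are shown because these genes ran together. Each window runs from 250 bases before to 50 bases after the annotated start. Capitals mark CG dinucleotides.
Grm5, chr1:150733503-150733802, plus strand: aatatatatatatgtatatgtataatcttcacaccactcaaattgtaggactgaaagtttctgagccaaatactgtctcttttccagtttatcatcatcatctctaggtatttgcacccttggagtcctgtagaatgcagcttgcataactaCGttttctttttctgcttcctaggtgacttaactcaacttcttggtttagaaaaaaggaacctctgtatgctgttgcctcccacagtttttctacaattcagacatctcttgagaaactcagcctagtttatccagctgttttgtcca
Grm7, chr4:145286476-145286775, plus strand: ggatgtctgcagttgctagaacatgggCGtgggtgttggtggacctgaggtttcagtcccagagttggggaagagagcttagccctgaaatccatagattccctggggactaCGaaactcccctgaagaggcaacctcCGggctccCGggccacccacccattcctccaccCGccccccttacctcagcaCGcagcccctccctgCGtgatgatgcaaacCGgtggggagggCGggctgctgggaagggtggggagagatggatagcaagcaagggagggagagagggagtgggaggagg

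The table held a promoter for 3 of the 6 genes, Grm5, Grm7 and Grm8. The Grm5 window is poor in G and C (37.3%) with 1 CG, whereas the Grm7 window has 62.0% G and C and 9 CG, against medians of 51.7% and 7 over the 33469 promoters of the table. The GC box GGGCGG, searched on both strands, occurs 2 times in the Grm7 window and 0 times in the Grm5 window, and 33.1% of all promoters hold it. The palindromic cyclic AMP element TGACGTCA is in neither of these windows and in 1.83% of all promoters. The Grm8 window, not printed here, has 47.3% G and C and 6 CG, with GGGCGG and TGACGTCA 0 times each.

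The libraries also differed in how much of their signal came from long gene models. A length measure was taken as the mean deviation in log2 CPM of gene models over 3486 bp minus that of models under 1372 bp. The measure was 0.05 ± 0.09 in knockdown and −0.05 ± 0.09 in scrambled libraries (SD, n = 4 each). Knockdown replicate 3 and scrambled replicates 3 and 4 were the lowest at −0.05, −0.08 and −0.15, and these 3 libraries were also the 3 lowest for Grm5 and for Grm7. The r with this measure was 0.74 for Grm5 (rho 0.76) and 0.87 for Grm7 (rho 0.90, n = 8 each). Without knockdown replicate 2 and scrambled replicate 4, the farthest from the median of the measure, these were 0.71 and 0.97. Grm2 had an r of −0.69 (rho −0.64), which weakened to −0.30 without those 2 libraries, so it rests on them. The r with the measure was 0.15 for Grm3, −0.36 for Grm4 and −0.27 for Grm8 over the 8 libraries. Without those 2 libraries these were 0.70, −0.47 and −0.42, so the order of the receptors by this r depends on the libraries entered. The gene models of Grm5 and Grm7, at 3121 and 2507 bp, lie between the limits of the measure. Whether these models cover the whole mRNAs was not checked, so the transcripts may be longer. After removal of a length trend from each library, the log2 fold change of Grm7 was 0.27 and that of Grm8 0.32. The part of transcript length or RNA quality in the spread of Grm5 and Grm7 was not tested beyond these values.

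**Figure D4:**
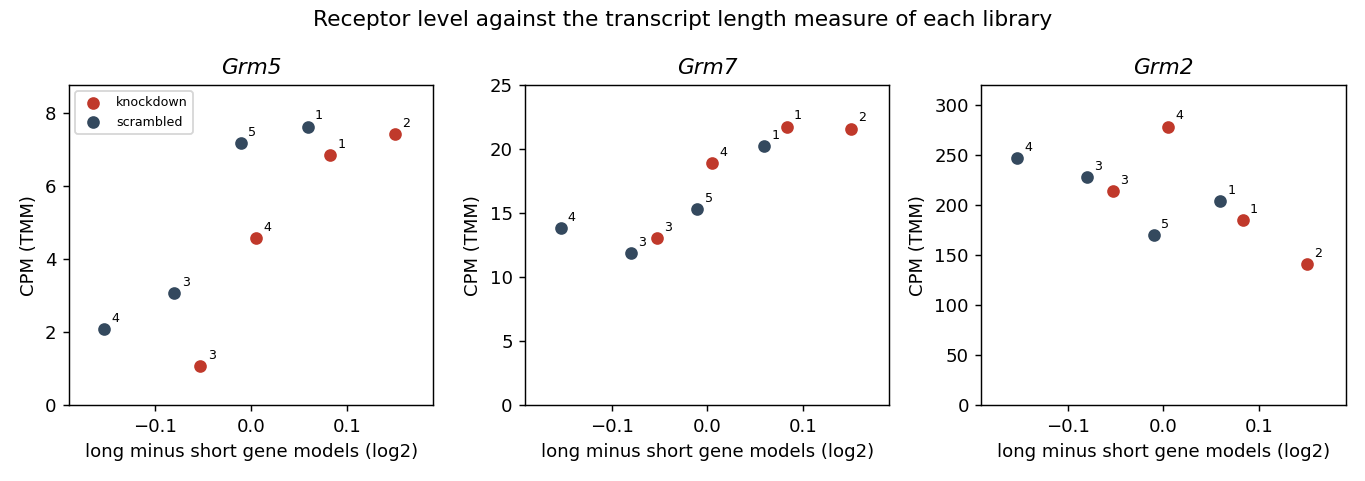
CPM of Grm5, Grm7 and Grm2 (y axes) against the length measure of each library (x axis, log2), with knockdown libraries in red, scrambled libraries in dark and replicate numbers beside the points. The 3 libraries lowest for Grm5 and Grm7 lie at −0.05, −0.08 and −0.15 on the x axis.

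The genes most like each receptor over the 8 libraries were sought among 13012 other protein-coding genes with a mean of at least 1 CPM, by Pearson's r of log2 CPM. The highest of so many values over 8 libraries is high by choice, so the r values describe the match only. Grm7 was matched most closely by Epha5, an ephrin receptor (r = 0.998), and by Pafah1b1, the dynein regulator LIS1 (r = 0.992). Grm8 was matched by Bcl11b, a transcription factor known as CTIP2 that marks deep-layer cortical and striatal neurons (r = 0.997), and by Wdr55 (r = 0.955). Bcl11b was at 30.1, 24.3, 33.8 and 27.4 CPM in knockdown replicates 1 to 4, against 17.3, 33.2, 24.7 and 19.3 CPM in scrambled replicates 1, 3, 4 and 5. As for Grm8, scrambled replicates 1 and 5 were the lowest libraries. Without these 2 libraries, the farthest from the median of Grm8, the r between Grm8 and Bcl11b was 0.990. Grm5 was matched by the transcriptional coactivator gene Ncoa2 (r = 0.990) and the RNA helicase gene Ddx6 (r = 0.989), both at under 3 CPM on average. Grm2 was matched by the histone gene Hist2h2ab (r = 0.982) and Ak1, an adenylate kinase (r = 0.965). Grm3 was matched by Zfp105 (r = 0.973) and the matrix protease gene Mmp9 (r = 0.968), and Grm4 by RGD1565166 (r = 0.973) and Spon2 (r = 0.965).

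Genes that carry the signals of these receptors were read next, as 6 lists chosen with earlier results of these data known. Of 106 names, 101 were found and 100 were tested. The edgeR test called 0 of the 100, with 2 higher and 3 lower at an unadjusted p under 0.05, against 2.38% higher and 3.20% lower among all genes. Group values did not overlap in 2 higher and 1 lower, against 1.82% and 1.65% of all genes. These counts are near the background. The median of each list changed sign in at least 1 alternative, so no direction is read from it.

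The Gi/o list (23 of 23 tested, median log2 fold change 0.04) held the smallest p of the 6 lists. Gnai2, an inhibitory G protein alpha subunit, was at 342, 374, 389 and 333 CPM in knockdown replicates 1 to 4, against 427, 481, 440 and 433 CPM in scrambled replicates 1, 3, 4 and 5. All 4 knockdown values lay below all 4 scrambled values. Its log2 fold change stood at −0.31 with a standard error of 0.08, and it did not pass in edgeR (unadjusted p = 0.00221, adjusted p = 0.833), whereas DESeq2 called it (adjusted p = 0.0265). Red blood cell markers averaged 576 ± 173 CPM in knockdown and 1277 ± 802 CPM in scrambled libraries (SD, n = 4 each), and their part in the Gnai2 values was not tested. Gnaz, a related alpha subunit, was at 76.2, 91.4, 74.3 and 72.8 CPM in knockdown replicates 1 to 4, against 70.2, 72.4, 65.5 and 64.2 CPM in scrambled replicates 1, 3, 4 and 5. The Gnaz groups did not overlap either, but in the other direction, with a log2 fold change of 0.21 and a standard error of 0.09. Gnb5, a beta subunit that partners RGS proteins, had a log2 fold change of 0.17. The median of the Gi/o list was 0.14 without scrambled replicate 1 and −0.0094 with the length trend removed.

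The Gq list that serves mGlu5 (16 tested) had a median log2 fold change of 0.04, and 11 members were above 0. This median was 0.17 without scrambled replicate 1, 0.0011 without knockdown replicate 2 and −0.017 with the length trend removed. Its members with the smallest p were the cation channel genes Trpc1 (0.25) and Trpc4 (0.32) and the phospholipase C gene Plcb4 (0.14), and their groups overlapped. Scaffolds and binding partners (22 tested) had a median of −0.06 with 12 below 0, which turned to 0.04 without knockdown replicate 1 and to 0.02 with the replicate block. Ncdn, which encodes norbin, an mGlu5-binding protein, had a log2 fold change of −0.24, the postsynaptic scaffold gene Shank1 −0.26 and Grip1 0.29. Their standard errors were 0.12, 0.15 and 0.18, and each had an edgeR adjusted p of 0.833.

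Desensitization genes (15 tested) had a median log2 fold change of 0.01, and of −0.06 without scrambled replicate 4. Arrb2, an arrestin gene, had −0.19, Adrbk1, which encodes the receptor kinase GRK2, −0.18 and Rgs4, an accelerator of G protein inactivation, 0.15. The list for NAAG and extracellular glutamate (9 tested) had a median of −0.05, which turned to 0.04 without knockdown replicate 1 and to 0.03 without a filter on low counts. In it the transporter genes Slc1a1 and Slc1a2 had 0.12 and −0.16, and Glul, the glutamine synthetase gene, had 0.12.

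Effectors of mGlu-dependent long-term depression (15 tested) had a median log2 fold change of −0.04, and 7 lay above and 8 below 0. Without knockdown replicate 4 this median was 0.0056. Pik3r1, a regulatory subunit of PI3 kinase, was at 39.2, 43.7, 44.7 and 41.4 CPM in knockdown replicates 1 to 4, against 33.4, 32.0, 38.0 and 32.1 CPM in scrambled replicates 1, 3, 4 and 5. Its groups did not overlap, and its log2 fold change stood at 0.32 with a standard error of 0.08 (edgeR adjusted p = 0.833). The MAP kinase pathway genes Map2k2 and Mapk3 had −0.20 and −0.29, with standard errors of 0.08 and 0.12, and their groups overlapped.

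**Figure D5:**
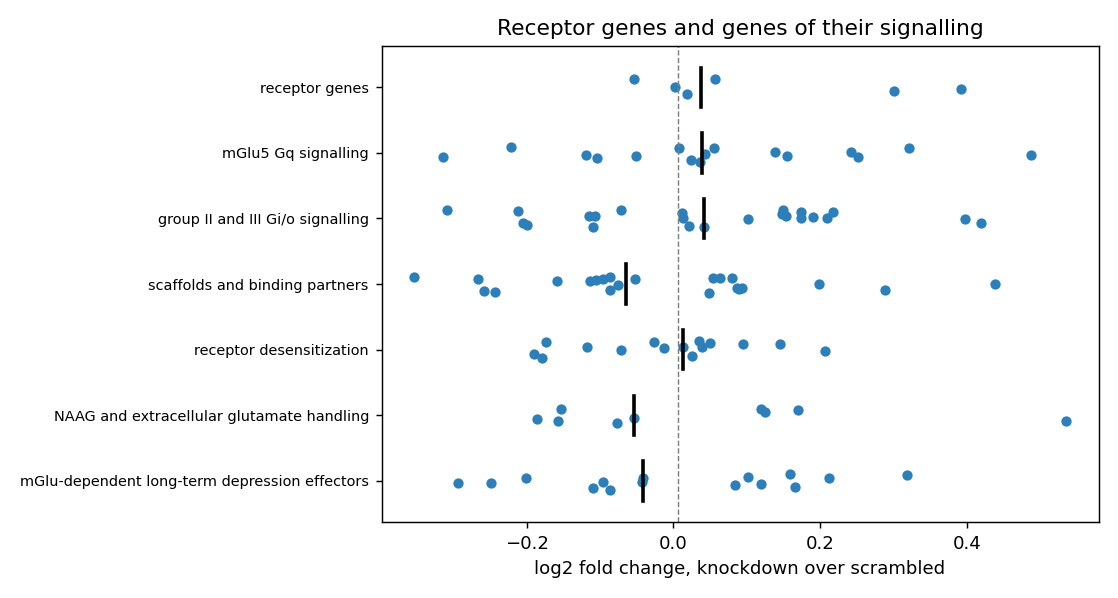
Log2 fold change of knockdown over scrambled libraries for the receptor genes (top) and the members of the 6 signalling lists. Points are genes, black bars are medians (−0.06 to 0.04) and the dashed line is the median of all genes tested (0.01).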

How the data were processed

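Counts per gene were deposited by the authors without normalization, from poly-T selected RNA in strand-marking libraries per the labels' protocols. The rn6 genome build and the tools featureCounts 1.5.0-p3, StringTie 1.3.3b, HISAT2 2.0.5 and fastp stand in the submitters' processing notes, with no role or setting. The strand setting of the counting was not given in the sources used here. The authors also deposited FPKM values, which divide reads by gene model length and a library total. Groups came from sample titles. Counts of any 2 libraries of a group differed by more than sampling noise (chi-square of 23.2 to 47.4 per degree of freedom). Libraries of a group were thus not copies of each other, but this check cannot show that they came from separate animals. Each was taken as 1 replicate, since the labels call the samples biological replicates.

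The fit used edgeR 4.0.16 in R 4.3.3, with filterByExpr (minimum count 10), TMM factors, robust dispersions and no covariate. P-values are 2-sided. Log2 fold changes are knockdown over scrambled, the standard error is the fold change over the square root of F, and 95% intervals use the test's degrees of freedom. Correlations use log2 CPM with a prior count of 2. DESeq2 1.42.0 and limma 3.58.1 gave alternatives. The procedure was tested on simulated data. The 6 receptors and the lists were chosen with earlier results of these data known. Named genes are the receptors, Nrxn3, the 3 genes of smallest p per list and the 2 genes most like each receptor. Outside this rule, Ppil1 and the genes Adcy1, Gnaq, Gnai1, Kcnj3, Prkce, Homer1, Arc and Elfn2 were chosen after their values were seen. Promoters were taken from RefSeq tables.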

Additional observations from a re-analysis of the deposited data

Results flagged for a closer look

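Grm3 in scrambled replicate 3, at 17.7 CPM, stood apart from the other scrambled libraries, which were at 24.3 to 24.97 CPM. The gap made up 0.902 of the group's range, above Dixon's critical value for 4 samples. In the same library the summed excitatory cortical neuron markers stood apart at 3108 CPM, against 2695 to 2738 CPM in the other scrambled libraries. The thalamic neuron markers in scrambled replicate 5 summed to 48.8 CPM, against 39.1 to 39.7 CPM in the other scrambled libraries. Of 40 sets of 4 libraries checked 3 were picked out, and chance gives about 1 in 20.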

How the results depend on the processing

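In each alternative that gave a receptor an adjusted p, that p stayed above the threshold for all 6 receptors, from 0.491 for Grm7 to 1.0. Grm7 and Grm8 kept log2 fold changes above 0 in all 21 alternatives (0.19 to 0.46 and 0.23 to 0.86). The lowest unadjusted p of a receptor was 0.0041, for Grm8 (0.86) without scrambled replicates 3 and 4 and knockdown replicate 3. The Grm5 value turned negative in 15 alternatives. It was −0.0093 with RLE factors, −0.013 with DESeq2, −0.0016 without a filter, −0.0010 with limma-voom, −0.0033 with protein-coding genes, −0.025 with log2(FPKM + 1) with or without a filter, −0.10 with log2(FPKM + 0.1) and −0.045 with the length trend removed. The Grm3 value was −0.032 with the length trend removed. Leaving out 1 library at a time gave −0.26 to 0.33 for Grm5, −0.24 to 0.089 for Grm2, −0.092 to 0.063 for Grm3 and −0.017 to 0.17 for Grm4. Without the 3 libraries lowest in long transcripts, Grm5 was −0.23, Grm2 0.11, Grm3 −0.059, and the long-term depression list had a median of −0.011 and 3 genes were called. That list had a median of −0.072 with the length trend removed, and of −0.046 to 0.0056 with 1 library left out. Genes called numbered 18 with DESeq2 and 0 to 1 with 1 library left out. Genes at an unadjusted p under 0.05 numbered 543 to 1697 with 1 library left out. The cause was not tested. With numbers 1, 3 and 4 as a replicate block, 0 genes were called and 1692 had an unadjusted p under 0.05. Under the block Grm5 was −0.14 and the desensitization median −0.10. Same-numbered libraries had deviations from their group means correlated at 0.37, 0.30 and 0.09. Replicates 1 and 3 of each group correlated best with the same number in the other group. Knockdown replicate 4 correlated best with scrambled replicate 4, but scrambled replicate 4 with knockdown replicate 3. The labels do not say whether the numbers pair animals, so the main fit has no block. Whether same-numbered libraries share a batch was not tested. The 30 counts of Grm5 in knockdown replicate 3 limit its precision.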

Other observations

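Among the 100 tested genes of the signalling lists, those that varied most between libraries tended to vary as Grm5 did. This was noticed after the values were seen and is given as a description. Of the 10 genes with the largest within-group SD, 8 had an r over 0.8 with Grm5 across the 8 libraries, as had 18 of the 100 and 5.96% of all genes tested other than Grm5, the lists included. The share among other genes of equally large SD was not taken, so these shares are not compared like for like. The 8 include Adcy1, a calcium-stimulated adenylyl cyclase gene (r = 0.94), Gnaq, the alpha subunit that couples mGlu5 to phospholipase C (0.95), Gnai1 (0.90), the potassium channel gene Kcnj3 (0.93) and the kinase gene Prkce (0.91). With Grm7 the r of these genes was 0.66, 0.62, 0.94, 0.93 and 0.95 in the same order. With the length measure it was 0.62, 0.70, 0.90, 0.79 and 0.89. The part of transcript length in this pattern was not tested. Homer1, whose product tethers mGlu5, had an r of 0.86 with Grm5 and 0.87 with Grm7. It was at 11.3, 16.9, 4.57 and 8.70 CPM in knockdown replicates 1 to 4, against 13.7, 4.32, 2.95 and 9.62 CPM in scrambled replicates 1, 3, 4 and 5. Its 3 lowest libraries were those lowest for Grm5, and its r with the length measure was 0.96. Arc and Elfn2 were the others of the 10, with an r of −0.50 and −0.23.

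Slc1a2, the main glutamate transporter gene of astrocytes, was at 24.9 ± 4.73 CPM in knockdown and 27.8 ± 3.33 CPM in scrambled libraries (SD, n = 4 each), on a gene model of 882 bp. Whether that model covers the whole mRNA was not checked.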
